A study of Mus musculus with 4 samples.

Results

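The 33 genes described here encode the enzymes that make purine and pyrimidine nucleotides in the mouse. They were taken from a list of symbols, and all 33 had a row in the deposited tables, among 24063 gene symbols in all. All 33 also passed the filter for expression, a mean of at least 1 CPM (read counts scaled to a common library size), as did 13129 genes in all. By role, 16 of them belong to the de novo routes and 8 to salvage. Of the other 9, 2 make the activated ribose that both routes use, and 7 phosphorylate nucleotides or guard the deoxynucleotide pool.

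The samples were 4 poly-A RNA libraries from untreated mouse tumours that overexpress MYC and PMEPA1, in C57BL/6 animals (C57BL6/J in the sample titles). The series describes them as hepatocellular carcinomas. Delivery was hydrodynamic, through the tail vein, by which injected DNA reaches mainly hepatocytes. The tumours have the replicate numbers 1, 5, 9 and 10 and form a single group without controls, and no condition was compared with another. The labels also give 8 to 10 passages. Neither the age of the animals nor the species of the delivered sequences is given, and the labels leave unsaid if each tumour is from its own animal. The spread between libraries may therefore be partly technical.

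De novo synthesis builds the purine ring on phosphoribosyl pyrophosphate (PRPP), and it builds the pyrimidine ring before joining it to PRPP. Salvage instead phosphorylates nucleosides, or joins free bases to PRPP, at a far lower cost in energy. Liver is a main site of purine production and export in the body. MYC is known to bind and activate many of the de novo genes, largely through the E-box CACGTG.

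Because of that background, the 250 bases upstream of each annotated start were searched for CACGTG, which reads the same on both strands. RefSeq windows on GRCm38.p6 were matched for 31 of the 33 genes. Of these 31, 5 (16.1%) held the letters, against 6.86% of 27025 genes with a window, expressed or not. They were Paics, Atic and Impdh2 of the purine route, the nucleoside diphosphate kinase Nme1, and the thymidylate kinase Dtymk. The 6 stretches of 30 bases that hold a match are shown because 3 of them belong to purine de novo genes with an SD of log2 CPM of at most 0.21 between the tumours. Capitals mark the match, and each stretch is written 5′ to 3′ on the strand of its gene. Nme1 has a match before each of its annotated starts.
Paics, chr5:76951087-76951116, plus strand: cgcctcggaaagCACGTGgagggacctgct
Atic, chr1:71557137-71557166, plus strand: ggacctcggggtCACGTGgggtcgacacgc
Impdh2, chr9:108560314-108560343, plus strand: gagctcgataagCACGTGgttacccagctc
Nme1, chr11:93968273-93968302, minus strand: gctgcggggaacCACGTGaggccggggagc
Nme1, chr11:93968037-93968066, minus strand: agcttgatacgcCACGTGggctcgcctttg
Dtymk, chr1:93802065-93802094, minus strand: gtctcgaacttcCACGTGaccagagcctgc

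The match starts 203 bases before the start of Paics, 7 before that of Atic, 110 before that of Impdh2, 18 and 29 before the starts of Nme1, and 148 before the start that the RefSeq window of Dtymk is built on. The transcript counted for Dtymk begins further upstream, inside the printed stretch. A match is a description of the letters, and no binding was measured here. The GC box GGGCGG, searched on both strands, was in the upstream window of 25 of the 31 genes (80.6%), against 35.4% of all genes with a window. The CCAAT box, also searched on both strands, was in 9 (29.0%), against 37.5%. All genes with a window were used here, expressed or not, whereas the searched genes all passed the filter for expression. These shares, like that of CACGTG, were therefore not set against expressed genes alone.

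The libraries held 51939623, 41547938, 48931408 and 41948878 gene counts in tumours 1, 5, 9 and 10. CPM values were scaled by TMM, a method that sets the bulk of genes equal between libraries, and scaling to total counts instead shifted the median gene of tumour 10 by -0.32 on the log2 scale. By markers, tumour 10 stood apart from the rest. The 14 hepatocyte markers summed to 43070 CPM in tumour 10, against 16170, 17260 and 22330 CPM in tumours 1, 5 and 9, and 11 of them were highest there. The 15 proliferation markers summed to 1581 CPM in tumour 10, against 2277, 2356 and 1922 CPM, and 11 of them were lowest there. The 10 stellate cell and fibroblast markers were all lowest in tumour 10. In tumour 9 all 10 neutrophil markers and all 9 measured erythroid markers were highest, with sums of 558.1 and 881.2 CPM, against at most 26.19 and 126.0 CPM elsewhere. Only 1 of 10 T and NK cell markers, Cd4, reached a mean of 1 CPM. The part of these marker lists in the results below was not tested. In bulk tissue, fewer cells of a type and less RNA per cell cannot be told apart. Among the hepatocyte markers Alb had 13400 CPM in tumour 10, against 4732, 4520 and 5594 CPM in tumours 1, 5 and 9. Trf, the only 1 of the 14 that was lowest in tumour 10, stood at 4112 CPM there, against 4710, 5468 and 5048 CPM. The mouse Myc row had 7.403 CPM in tumour 10, against 4.857, 6.841 and 8.580 CPM, and the mouse Pmepa1 row 0.9217 CPM, against 2.429, 7.285 and 4.188 CPM. Since the species of the delivered sequences is not given and there is no control, these rows do not check the overexpression.

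The nucleotide synthesis genes were well expressed and, for the most part, even between the tumours. Together they summed to 6154 CPM in tumour 10, against 4515, 4864 and 4521 CPM in tumours 1, 5 and 9. By the same TMM scaling, all expressed genes summed to 1246000 CPM in tumour 10, against 906300, 969000 and 909100 CPM. The higher sum in tumour 10 is therefore not a larger share of the counts. Per kilobase of transcript, which is the scale on which genes can be compared, their median level was 44.2 CPM per kb, against 9.65 CPM per kb over all expressed genes, and 32 of the 33 lay above the median expressed gene. The highest was Nme2, at 625.4 ± 183.9 CPM per kb, followed by the salvage kinase Adk at 265.0 ± 199.5 and the salvage transferase Aprt at 206.8 ± 37.38 (SD, n = 4 each). The lowest was Tk2, the mitochondrial thymidine kinase, at 7.889 ± 4.239 CPM per kb (SD, n = 4).

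**Figure D1:**
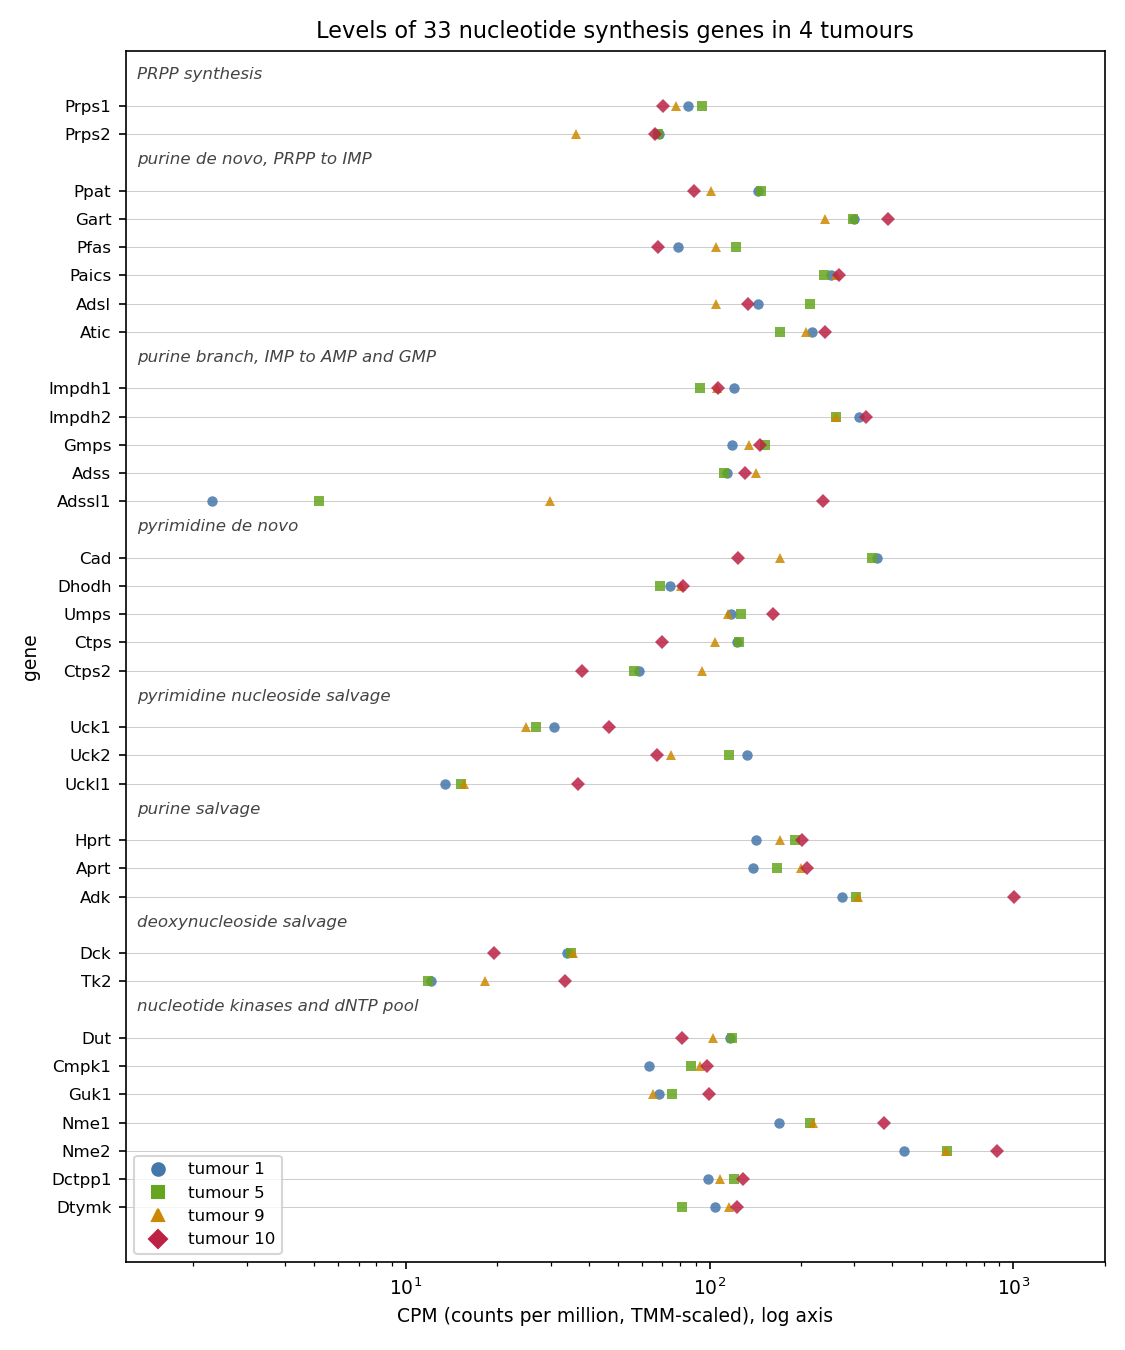
Level of each of the 33 genes in CPM (log axis) in tumours 1, 5, 9 and 10, grouped by role. Most genes form tight groups of 4 symbols, while Adssl1 runs from 2.306 CPM in tumour 1 to 236.8 CPM in tumour 10, and Adk stands at 1005 CPM in tumour 10 against at most 307.7 CPM elsewhere.

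The spread between tumours was measured as the SD of log2 CPM. Its median over the 33 genes was 0.28, against 0.45 over all expressed genes, and 25 of the 33 genes (75.8%) lay below that median. In 12 of the 33 genes the highest tumour was less than 1.5 times the lowest, and in 24 it was less than 2 times. These 2 counts were not taken over all expressed genes. The median of the mean CPM was 106 over the 33 genes and 27.9 over all expressed genes, and the spread was not set against genes of like level. By a Poisson heterogeneity test with Benjamini-Hochberg adjustment, all 33 genes varied beyond counting error, as did 98.7% of all expressed genes, so this count sets the members apart in no way. With 5% of technical variation allowed for, 31 of the 33 were called, against 94.1% of all expressed genes. The exceptions were Paics and Dhodh, with adjusted p-values of 0.419 and 0.0935 in that chi-square test.

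**Figure D2:**
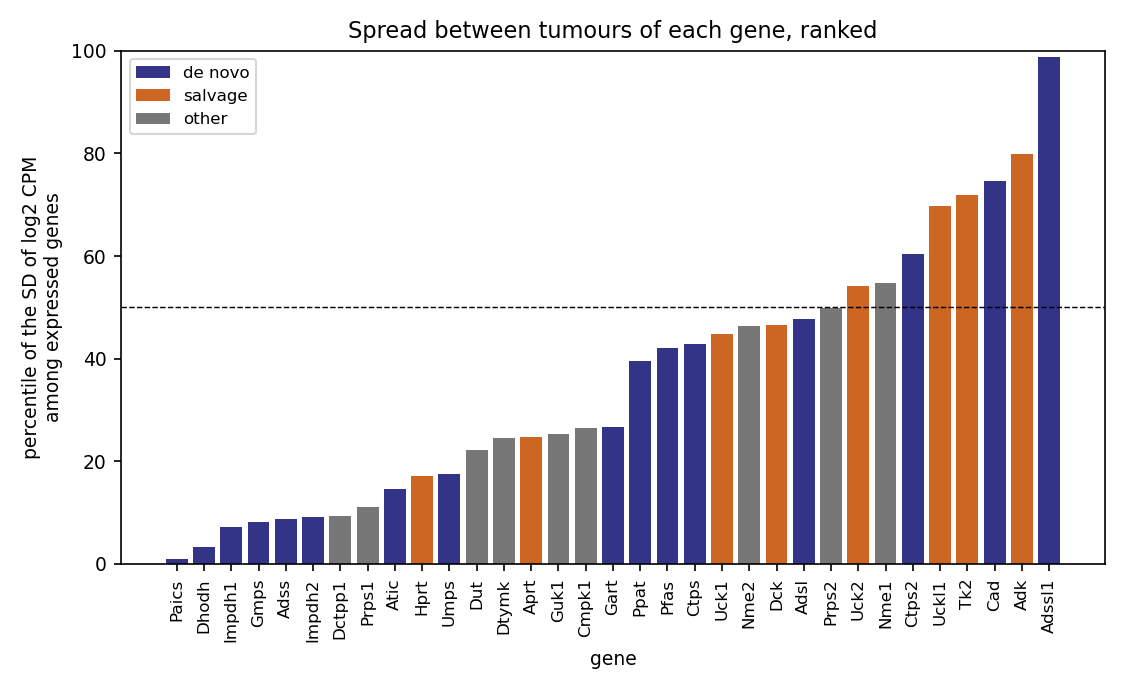
Percentile of each gene's SD of log2 CPM among 13129 expressed genes, from the most even gene on the left to the most variable on the right. The dashed line marks the median expressed gene, and the colours give the role. Paics lies at percentile 0.983 and Adssl1 at percentile 98.8.

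PRPP, the activated ribose, is made by PRPP synthetase, with Prps1 and Prps2 as its widely expressed isozymes. Prps1 had 70.47 CPM in tumour 10, against 85.16, 94.52 and 77.56 CPM in tumours 1, 5 and 9. Prps2 had 36.39 CPM in tumour 9, against 68.30, 67.59 and 66.10 CPM in tumours 1, 5 and 10. Prps2 was thus low in tumour 9, and the other 3 values lay close together. For tumour 9 against the other 3, Prps2 had a log2 fold change of -0.89 and an adjusted p of 0.636 in edgeR's quasi-likelihood test.

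With a single group, each tumour was set against the other 3 in edgeR's quasi-likelihood test, with Benjamini-Hochberg adjustment over the 13129 genes times 4 tumours. The lone sample is assumed to vary like the others. No nucleotide synthesis gene passed at an adjusted p of 0.05 in any tumour, and neither did any of the other expressed genes (0%). Before adjustment, 6 of the 33 genes (18.2%) had p under 0.05 and a higher level in tumour 10, against 13.9% of all expressed genes, and 2 (6.06%) had a lower level, against 8.23%. In tumour 9, 1 gene, Prps2, was lower with such a p, against 1.90% of all genes, and 0 were higher, against 3.76%. In tumour 5, 0 were higher, against 0.617% of all genes, and 0 lower, against 0.305%. In tumour 1, 0 were higher, against 0.427%, and 0 lower, against 0.289%. DESeq2, with the same adjustment, called Adssl1 in tumour 1 (lower there, against 0.221% of all genes called), 0 of the 33 in tumour 5 (0.343%), 0 in tumour 9 (2.42%), and Adk and Uckl1 in tumour 10 (10.3%). Fold changes and adjusted p-values below are edgeR's, for tumour 10 against the other 3, unless stated.

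The purine ring is built on PRPP by Ppat, Gart, Pfas, Paics, Adsl and Atic, which lead to inosine monophosphate (IMP). Paics, the enzyme of the carboxylation and succinocarboxamide steps, was the most even of the 33 genes. It had 267.4 CPM in tumour 10, against 250.9, 238.1 and 260.0 CPM in tumours 1, 5 and 9. Its SD of log2 CPM was 0.07, and all 4 values lay within 1.12-fold. Atic, which closes the ring, had 240.6 CPM in tumour 10, against 218.0, 170.8 and 207.4 CPM. Gart, which carries 3 of the steps, had 386.8 CPM in tumour 10, against 298.1, 295.9 and 239.6 CPM. Both genes were highest in tumour 10, but neither passed the test, with an adjusted p of 0.984 for Atic and an adjusted p of 0.912 for Gart by edgeR.

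Ppat, the amidotransferase of the committed step, had 88.87 CPM in tumour 10, against 144.2, 147.6 and 101.2 CPM in tumours 1, 5 and 9. Pfas had 67.91 CPM in tumour 10, against 79.01, 122.3 and 105.1 CPM. Adsl, which acts here and again on the way to AMP, had 133.7 CPM in tumour 10, against 144.8, 213.8 and 104.8 CPM. Ppat and Pfas were lowest in tumour 10, while Adsl was lowest in tumour 9 and highest in tumour 5. The 6 genes therefore did not share an order of tumours: 3 were highest and 2 lowest in tumour 10, and their median deviation from the 4-tumour mean there was -0.02 on the log2 scale. The 2 lowest, Ppat and Pfas, had transcripts of 4008 and 6369 bases, and the 3 highest had 2378 to 3327 bases. The part of transcript length was not tested. Ppat and Paics lie head to head on chromosome 5 and overlap at their starts, and 5.67% of the 50-base words of Ppat also occur in Paics. Of such words, 12.1% for Paics, 15.3% for Gart and 10.1% for Prps1 recur in other genes, so these counts are uncertain to that extent. The log2 ratio of Ppat to Paics per kilobase was -2.34 in tumour 10, against -1.55, -1.44 and -2.11 in tumours 1, 5 and 9, a pair picked after its values were seen.

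From IMP, one branch leads to GMP through Impdh1 or Impdh2 and then Gmps. The other leads to AMP through Adss or Adssl1 and then Adsl. Impdh2, the isozyme linked to proliferation, had 327.2 CPM in tumour 10, against 309.4, 261.1 and 261.1 CPM in tumours 1, 5 and 9. Impdh1 had 106.4 CPM in tumour 10, against 120.3, 92.88 and 106.2 CPM. Gmps had 146.5 CPM in tumour 10, against 118.5, 152.3 and 135.0 CPM. All 3 genes of the GMP branch were thus among the more even genes, with SDs of log2 CPM of 0.15 to 0.17. Of the 50-base words of Impdh2, 73.9% recur in its annotated pseudogene, so its counts are uncertain where the counting split such reads.

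On the AMP branch, Adss, the widely expressed adenylosuccinate synthase, had 130.6 CPM in tumour 10, against 114.0, 111.9 and 142.4 CPM in tumours 1, 5 and 9. Adssl1, known as the muscle isozyme of the same reaction, had 236.8 CPM in tumour 10, against 2.306, 5.183 and 29.82 CPM. Adssl1 spanned 103-fold between tumours 10 and 1, and its SD of 2.95 was the only one of at least 1 among the 33 genes, against 16.6% of all expressed genes. Tumour 10 against the other 3 gave a log2 fold change of 4.25, with an adjusted p of 0.545 in edgeR's quasi-likelihood test. Without tumour 9 the log2 fold change was 5.95 and the adjusted p 0.045, in a fit that called 3.19% of all genes. Without tumour 1 or tumour 5, none of the 33 genes was called in tumour 10. The transcript shares none of its 50-base words with another gene. Of the 14 hepatocyte markers, 11 were also highest in tumour 10, and the part of these markers in the level of Adssl1 was not tested.

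The 250 bases before the annotated start of Adssl1, from RefSeq on GRCm38.p6, are shown because this gene varied most. Capitals mark the GC box, here as CCGCCC on the printed strand, and neither CCAAT nor CACGTG is in the window.
Adssl1, chr12:112619797-112620046, plus strand: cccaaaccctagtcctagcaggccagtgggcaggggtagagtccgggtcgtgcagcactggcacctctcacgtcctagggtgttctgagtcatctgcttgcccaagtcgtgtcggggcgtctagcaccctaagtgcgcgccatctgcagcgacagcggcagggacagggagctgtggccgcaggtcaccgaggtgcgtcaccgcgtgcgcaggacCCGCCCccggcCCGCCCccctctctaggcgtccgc

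Pyrimidines are made by Cad, which holds the first 3 activities of the route, then Dhodh in mitochondria and Umps, and Ctps or Ctps2 turns UTP into CTP. Cad, a well-known MYC target, had 123.9 CPM in tumour 10, against 355.3, 342.1 and 170.2 CPM in tumours 1, 5 and 9. Tumours 1 and 5 were high, and tumours 9 and 10 low. The span was 2.87-fold, and tumour 10 against the rest had a log2 fold change of -1.22 and adjusted p = 0.734 by edgeR. Ctps had 69.90 CPM in tumour 10, against 123.4, 125.0 and 103.9 CPM, with a log2 fold change of -0.75 and adjusted p = 0.578 by edgeR. Ctps2 had 37.97 CPM in tumour 10, against 58.74, 56.57 and 94.75 CPM, so both CTP synthases were lowest there.

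The middle of the pathway did not follow Cad. Dhodh had 81.59 CPM in tumour 10, against 74.10, 68.95 and 80.68 CPM in tumours 1, 5 and 9, an SD of log2 CPM of 0.11. Umps had 162.0 CPM in tumour 10, against 117.8, 126.6 and 115.4 CPM. Of the 5 genes of the route, 2 were highest and 3 lowest in tumour 10, with a median deviation of -0.56 there. Proliferation markers were lower in tumour 10 as well, and their part in the levels of Cad and Ctps was not tested. Longer transcripts also tended to be lower in tumour 10, with a Spearman rho of -0.27 over 13129 genes, which are not independent. The Cad transcript has 7137 bases, against 2318 for Dhodh, 3219 for Umps and 2705 for Ctps. The part of length in these levels was not tested.

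Salvage of purines runs through Hprt for hypoxanthine and guanine, Aprt for adenine and Adk for adenosine. Adk had 1005 CPM in tumour 10, against 272.0, 304.1 and 307.7 CPM in tumours 1, 5 and 9. The value in tumour 10 was 3.41 times the mean of the others, which lay close together. Its log2 fold change was 1.77, with the smallest adjusted p of the 33 genes, 0.144, in edgeR's quasi-likelihood test. The call depended on the method: adjusted within tumour 10 alone the edgeR adjusted p was 0.040, where 1.75% of all genes were called, and DESeq2 gave an adjusted p of 3.42e-09, where 10.3% were called. Hepatocyte markers summed to 43070 CPM in tumour 10, against at most 22330 CPM elsewhere, and their part in the level of Adk was not tested.

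The 250 bases before the annotated start of Adk, from RefSeq on GRCm38.p6, are shown because Adk had the smallest adjusted p in that test. Capitals mark CCAAT or its reverse ATTGG and the GC box GGGCGG, 2 of each, and a pair of them overlaps in ATTGGGCGG. The window holds no CACGTG.
Adk, chr14:21052324-21052573, plus strand: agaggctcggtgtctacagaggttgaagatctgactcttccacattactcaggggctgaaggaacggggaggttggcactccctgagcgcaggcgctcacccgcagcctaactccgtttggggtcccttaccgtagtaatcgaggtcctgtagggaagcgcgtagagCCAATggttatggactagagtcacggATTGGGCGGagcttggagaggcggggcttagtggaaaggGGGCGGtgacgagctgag

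Hprt had 201.4 CPM in tumour 10, against 142.3, 191.2 and 170.8 CPM in tumours 1, 5 and 9. Aprt had 210.1 CPM in tumour 10, against 139.0, 167.2 and 200 CPM. All 3 purine salvage genes were thus highest in tumour 10, although for Hprt and Aprt the margin over the next tumour was small and both lost that place when scaled to total counts.

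Uridine and cytidine are phosphorylated by Uck1, Uck2 and the related Uckl1. Uck1 had 46.71 CPM in tumour 10, against 30.75, 26.83 and 24.94 CPM in tumours 1, 5 and 9, with adjusted p = 0.594 by edgeR. Uckl1 had 36.81 CPM in tumour 10, against 13.47, 15.25 and 15.58 CPM, with a log2 fold change of 1.32 and adjusted p = 0.331 by edgeR. Uck2, the isozyme with the higher catalytic activity, had 67.23 CPM in tumour 10, against 132.9, 116.0 and 74.49 CPM. Uck1 and Uckl1 were therefore highest in tumour 10, where Uck2 was lowest. DESeq2 called Uckl1 in tumour 10, with an adjusted p of 0.0235.

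Deoxynucleosides are salvaged by Dck in the cytosol and Tk2 in mitochondria. Dck had 19.50 CPM in tumour 10, against 33.95, 35.05 and 35.57 CPM in tumours 1, 5 and 9. Tk2 had 33.54 CPM in tumour 10, against 12.07, 11.88 and 18.24 CPM. The log2 fold changes had opposite signs, -0.84 for Dck and 1.25 for Tk2, with adjusted p = 0.548 for Dck and adjusted p = 0.504 for Tk2 by edgeR.

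Nucleoside diphosphate kinases, which hand the last phosphate to all nucleotides, are encoded by Nme1 and Nme2, and Nme2 had the highest level per kilobase of the 33 genes. Nme2 had 883.1 CPM in tumour 10, against 435.7, 606.3 and 599.1 CPM in tumours 1, 5 and 9. Nme1 had 375.4 CPM in tumour 10, against 169.6, 214.2 and 218.4 CPM, with adjusted p = 0.464 by edgeR. Both were highest in tumour 10 and lowest in tumour 1. Of the 50-base words of Nme2, 54.5% recur in another annotated gene, which also shares 11.8% of those of Nme1, so both counts are uncertain. The words were taken from GENCODE transcripts, which can differ from the rows counted. For Nme1 that transcript has 3181 bases and the counted row 1235, so 11.8% does not describe the counted row.

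Cmpk1 and Guk1 phosphorylate CMP, UMP and GMP. Guk1 had 99.52 CPM in tumour 10, against 68.25, 75.21 and 65.11 CPM in tumours 1, 5 and 9, and Cmpk1 had 98.06 CPM, against 63.42, 87.07 and 92.86 CPM. Dtymk makes dTDP, Dctpp1 removes non-canonical dCTP and Dut keeps dUTP out of DNA. Dut had 80.93 CPM in tumour 10, against 116.4, 118.9 and 102.5 CPM. It was the only one of the 7 genes in this group lowest in tumour 10, and the other 6 were highest there, but under total-count scaling 3 of the 7 were highest and 2 lowest.

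De novo genes had a smaller median spread between the tumours than salvage genes. The median SD of log2 CPM was 0.25 over the 16 de novo genes and 0.45 over the 8 salvage genes, against 0.45 over all expressed genes. Of the de novo genes 13 of 16, and of the salvage genes 4 of 8, lay below the median of all genes. That gap rested on tumour 10: without it the medians were 0.19 for de novo, 0.18 for salvage and 0.31 for all genes. The median level per kilobase, on the log2 scale, was 5.31 ± 0.11 for de novo and 5.07 ± 0.24 for salvage genes, and the difference within a tumour was 0.24 ± 0.14 (SD, n = 4). It was positive in all 4 tumours, at 0.08, 0.26, 0.40 and 0.20 in tumours 1, 5, 9 and 10. As a mean over the genes in place of a median it was 0.00, so no order of the routes by level was shown.

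Summed over genes, the de novo route had 986.2 CPM per kb and salvage 1071 in tumour 10. In tumours 1, 5 and 9 the de novo sums were 852.7, 820.7 and 787.4 and the salvage sums 557.3, 630.9 and 626.5 CPM per kb. These sums depend on the TMM scaling, under which all expressed genes together also summed highest in tumour 10. Their ratio within a tumour does not depend on it. The ratio of de novo to salvage was 0.921 in tumour 10, against 1.53, 1.3 and 1.26 in tumours 1, 5 and 9. Leaving out Adk and Adssl1, a choice made after seeing the data, it was 1.69 in tumour 10, against 2.10, 1.78 and 1.70. Without these 2 genes the ratio in tumour 10 lay beside that in tumour 9.

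**Figure D3:**
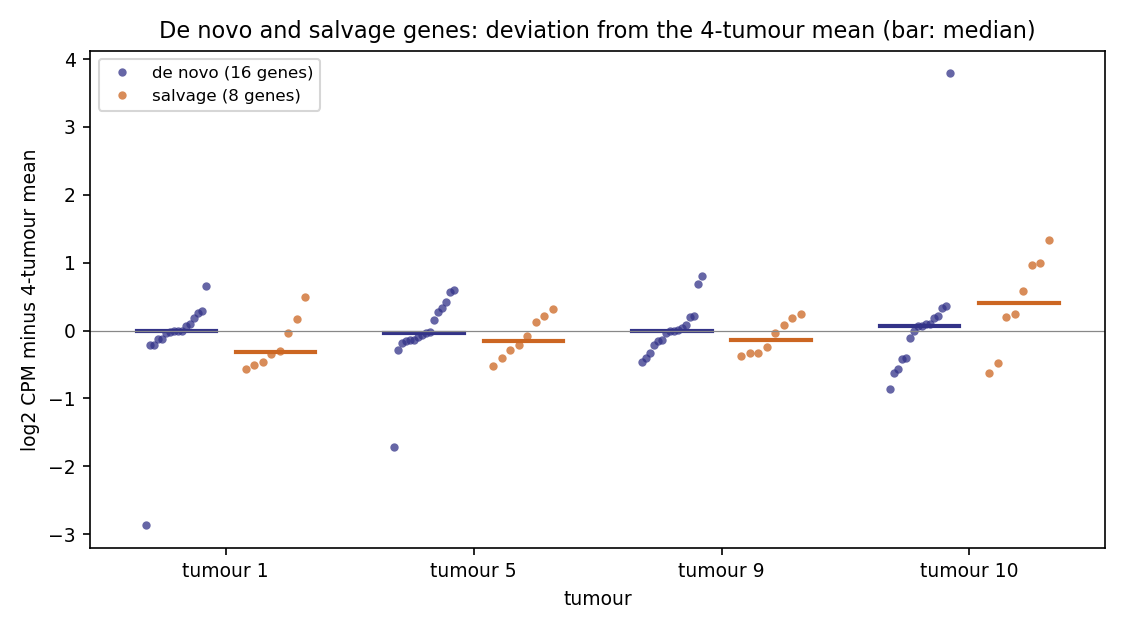
Deviation of each de novo gene (16) and salvage gene (8) from its own mean over the 4 tumours, in log2 CPM, by tumour, with a bar at the median. The salvage median is 0.41 in tumour 10 and between -0.32 and -0.14 in the other tumours, while the de novo median stays between -0.04 and 0.07.

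As a deviation from the 4-tumour mean, de novo minus salvage was -0.34 in tumour 10, against 0.32, 0.11 and 0.14 in tumours 1, 5 and 9. Transcript length moved with these deviations. De novo transcripts had a median length of 2962 bases and salvage transcripts 1796, and across 13129 genes, which are not independent, the deviation had a Spearman rho with length of -0.27 in tumour 10, against 0.23, 0.14 and 0.06 in tumours 1, 5 and 9. Centred within deciles of length, de novo minus salvage was -0.23 in tumour 10, against 0.14, 0.04 and 0.11. As a mean over genes it was -0.26 in tumour 10, against 0.06, 0.08 and 0.12. Leaving out Adk and Adssl1 it was -0.18 in tumour 10, against 0.30, 0.05 and 0.03. Without tumour 10 the value of tumour 1 was 0.12, and those of tumours 5 and 9 changed sign, to -0.02 and -0.04. Tumour 10 was highest for 7 and lowest for 5 of the 16 de novo genes, and for 6 and 2 of the 8 salvage genes, but under total-count scaling it was highest for 1 and lowest for 12 de novo genes, and for 4 and 2 salvage genes. Over the 33 genes it was highest for 19 (57.6%, against 35.8% of all expressed genes) and lowest for 9 (27.3%, against 32.4%). Under total-count scaling it was highest for 8 (24.2%, against 20.0% of all expressed genes) and lowest for 17 (51.5%, against 53.3%), close to the shares over all genes. By TMM scaling tumour 10 was outermost, on either side, for 28 of the 33 (84.8%), against 68.2% of all genes. By the same TMM scaling, tumour 1 was highest for 4 (21.4% of all genes) and lowest for 10 (21.8%), tumour 5 for 7 (21.2%) and 7 (20.3%), and tumour 9 for 3 (21.6%) and 7 (25.5%). The genes highest in tumour 10 under both scalings were Adssl1, Uck1, Uckl1, Adk, Tk2, Guk1, Nme1 and Nme2.

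For 6 reactions with a pair of isozymes, the share of each was taken from counts per kilobase within a library, which does not depend on the scaling. Adssl1 made up 72.1% of the pair with Adss in tumour 10 (95% exact Clopper-Pearson interval 71.3 to 72.8), against 2.80% (2.35 to 3.31), 6.19% (5.43 to 7.03) and 23.0% (22 to 24) in tumours 1, 5 and 9. The leading isozyme was thus Adssl1 in tumour 10 and Adss in the other 3. Uck1 made up 32.3% of the pair with Uck2 in tumour 10, against 13.7%, 13.7% and 18.7%, but 24.5% of its 50-base words recur in other genes, so its counts are uncertain. Prps2 had its lowest share in tumour 9, at 20.3%, against 30.3%, 28.0% and 33.7% in tumours 1, 5 and 10. In that pair 10.1% of the 50-base words of Prps1 recur in other genes. Ctps2 had its highest share in tumour 9, at 30.6%, against 18.7%, 18% and 20.8%.

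The remaining pairs were steady. Of the 50-base words, 73.9% for Impdh2 and 54.5% for Nme2 recur in other genes, so the shares in these pairs are uncertain too. Impdh1 made up 18% of the pair with Impdh2 in tumour 10, against 20.8%, 19.4% and 21.5% in tumours 1, 5 and 9. Nme2 made up 74.2% of the pair with Nme1 in tumour 10, against 75.9%, 77.6% and 77.1%. The intervals cover counting error only and were at most 2.84 percentage points wide. For Ctps over Ctps2 the mean log2 ratio was 1.85 ± 0.46 (SD, n = 4). It became -0.46 when the transcript rows of each gene were summed, 5 for Ctps2 and 1 for Ctps, over the length of 1 row. A read counted in several rows would enter such a sum more than once, and this was not tested. The sum therefore does not settle which isozyme leads.

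**Figure D4:**
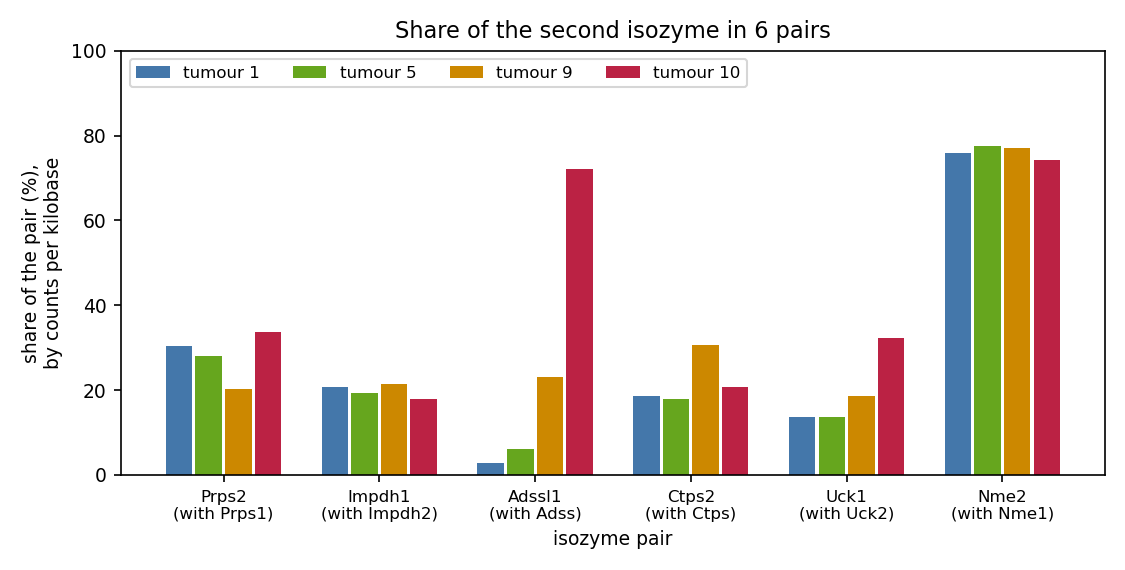
Share of the second isozyme in 6 pairs, in percent of the pair's counts per kilobase, with 1 bar for each tumour. Adssl1 stands at 72.1% in tumour 10 against at most 23.0% elsewhere, while Nme2 stays between 74.2% and 77.6%.

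Genes around the nucleotide pathways were described from lists in the same way, and none passed the adjusted test in any tumour by edgeR (0% of all expressed genes). For making deoxyribonucleotides, Rrm1, the large subunit of ribonucleotide reductase, had 96.96 CPM in tumour 10, against 149.9, 208.4 and 128.1 CPM in tumours 1, 5 and 9. Rrm2, its small subunit, had 198.7 CPM in tumour 10, against 180.5, 218.1 and 159.5 CPM. Of the 9 genes on that list, which also holds other deoxynucleoside salvage kinases, 1 was highest and 4 lowest in tumour 10. The 8 genes of the pentose phosphate pathway, which supplies ribose, had a median deviation of 0.11 in tumour 10, and the transketolase Tkt had 487.8 CPM there, against 457.8, 594.8 and 454.9 CPM.

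Breakdown enzymes had larger differences in value in tumour 10. Of the 12 expressed purine breakdown genes 8 were highest there (66.7%, against 35.8% of all expressed genes). The 12 summed to 2583 CPM in tumour 10, against 438.6, 506.4 and 366.2 CPM in tumours 1, 5 and 9. Uox, the urate oxidase of rodent liver, made up most of that sum in tumour 10, with 1852 CPM, against 110.6, 147.0 and 12.10 CPM. Of the 9 pyrimidine breakdown genes 7 were highest in tumour 10 (77.8%, against the same 35.8%). The 9 summed to 1250 CPM there, against 255.8, 307.5 and 210.6 CPM. These ranks and sums are by TMM scaling, under which all expressed genes together also summed highest in tumour 10. The uridine phosphorylase Upp2 had 238.2 CPM in tumour 10, against 4.648, 7.775 and 6.570 CPM, a log2 fold change of 5.23 with adjusted p = 0.0876 by edgeR. The thymidine phosphorylase Tymp had 316.1 CPM in tumour 10, against 51.77, 54.52 and 50.74 CPM, with the same adjusted p by edgeR. The hepatocyte markers and the breakdown lists had medians of 1.57, 0.66 (purine) and 1.57 (pyrimidine) as deviations in tumour 10, against 0.02 over all expressed genes, and the part of the markers was not tested.

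**Figure D5:**
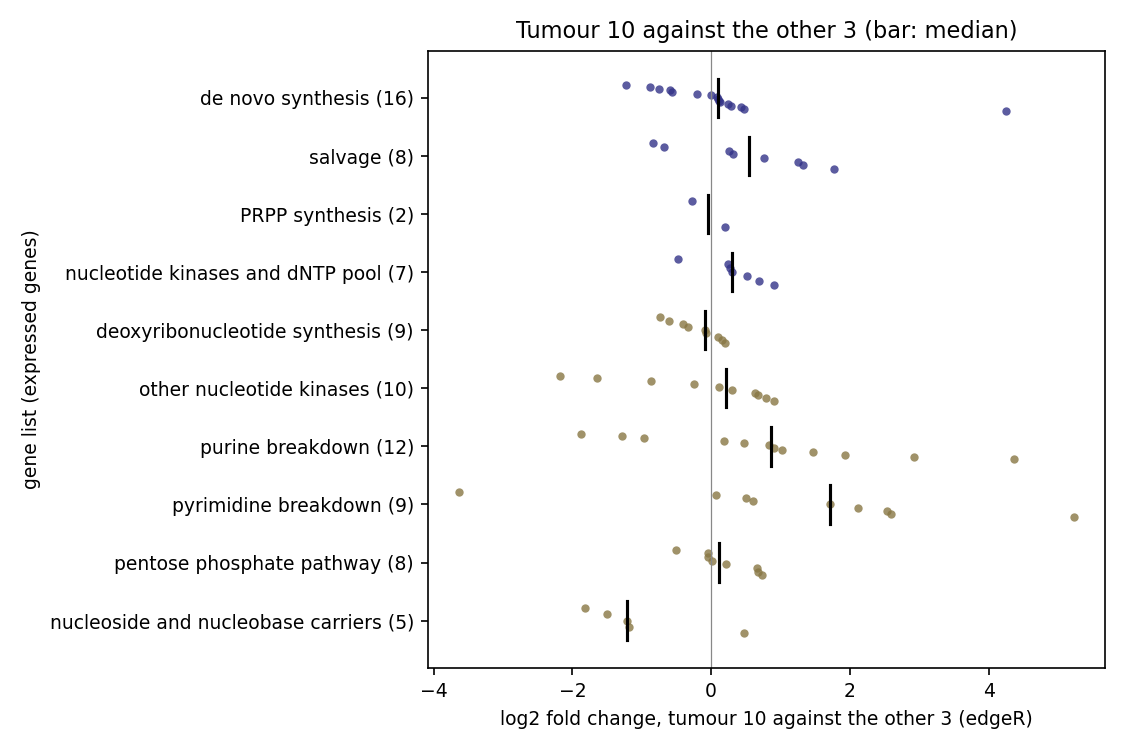
Log2 fold change of tumour 10 against the other 3 tumours (edgeR), with 1 point for each expressed gene, by list, and a bar at the median. The de novo points run from -1.22 for Cad to 4.25 for Adssl1, and the pyrimidine breakdown list reaches 5.23 with Upp2.

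Carriers take nucleosides into the cell. Slc29a1, the main equilibrative carrier, had 200.4 CPM in tumour 10, against 151.2, 160.5 and 122.6 CPM in tumours 1, 5 and 9. Slc29a2 had 7.017 CPM in tumour 10, against 30.42, 29.72 and 14.03 CPM, with adjusted p = 0.558 by edgeR. Of the 5 expressed carriers, 1 was highest and 2 lowest in tumour 10, with a median deviation of -0.66, and 3 were highest in tumour 9, with a median deviation of 1.28 there.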

How the data were processed

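RNA was poly-A selected and sequenced from 4 tumours of 1 group. The authors deposited, for each library, a table of RefSeq transcript rows with read counts. The deposited FPKM and TPM columns beside them were not tested, and the FPKM served to derive transcript lengths. The submitters' processing notes name FastQC 0.11.8 and the build GRCm38. No source used here names the aligner or the counter. For each symbol the row with the highest mean count was kept, and genes with a mean of at least 1 CPM were tested. Counts were scaled by TMM, and log2 CPM used a prior count of 2. Each tumour was compared with the other 3 by edgeR's quasi-likelihood test (edgeR 4.0.16, R 4.3.3), adjusted over all genes and the 4 tumours. DESeq2 1.42.0, limma-voom (limma 3.58.1), other scalings, no filter, other rows and leaving out each tumour were tried. The scripts were tested on simulated data. Tables were handled in Python 3.11.15.

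Gene totals were 41547938 to 51939623 counts, and the lowest count of a nucleotide synthesis gene was 132, so counting error was small beside the spread. The labels do not say that the tumours came from separate animals, so p-values measure only the spread between these samples, which may be technical. Of genes outside the 33, the text names at most the 2 highest by CPM of each list and the one with the largest SD, plus Myc and Pmepa1. The members and lists were chosen with earlier results of these data known.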

Additional observations from a re-analysis of the deposited data

Results flagged for a closer look

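In 4 of 39 values tested, which were the levels of the 33 genes and 6 isozyme ratios, 1 tumour stood far from the other 3, measured as its gap to the nearest tumour over the whole range of log2 CPM (Dixon's ratio, above its 95% critical value for 4 samples). All 4 were gene levels, so 4 of 33 genes did so, against 7.01% of all expressed genes. Chance gives such a result in about 1 of 20 groups. Adk was high in tumour 10, with a ratio of 0.906. Uckl1 was high in tumour 10, with a ratio of 0.856. Dck was low in tumour 10, with a ratio of 0.922. Prps2 was low in tumour 9, with a ratio of 0.948. All 4 genes missed an adjusted p of 0.05 in edgeR's quasi-likelihood test.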

How the results depend on the processing

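Of 225 values under alternatives, 3 changed sign and 25 moved by more than the spread between tumours or, for counts, by over 1.5 times. The other 197 stayed within these limits, but their number does not measure robustness. Many could hardly change, since library scaling cancels in de novo minus salvage and neither other filter dropped any of the 33 genes. Others were counts of 0 that stayed 0. Sizes could still differ within the limits: leaving out each tumour, the mean log2 ratio of Adss to Adssl1 of 2.35 ranged from 1.43 to 3.59. Genes called by edgeR, 0 in each tumour, became 2, 6 and 123 in tumours 1, 9 and 10 with no filter, and 230 in tumour 10 when adjusted within the tumour, where 1 of the 33 was called. DESeq2 called 29, 45, 318 and 1357 genes in tumours 1, 5, 9 and 10, with 1 of the 33 in tumour 1 and 2 in tumour 10; limma-voom called 0 in each. Leaving out each tumour gave 0 to 2, 0 to 1, 0 to 28 and 0 to 411 genes in tumours 1, 5, 9 and 10, and 0 to 2 of the 33 in tumour 10, both without tumour 9. At an unadjusted p under 0.05 tumour 10 had 1824 genes higher and 1080 lower. The de novo minus salvage level of 0.24 was 0.00 as a mean and 1.08 with no length term. Leaving out each tumour, the de novo minus salvage deviation ranged from -0.02 to 0.15 in tumour 5 and from -0.04 to 0.13 in tumour 9. With no length term the log2 ratios were 0.50 for Prps1 to Prps2, 1.44 for Impdh2 to Impdh1, 0.81 for Ctps to Ctps2 and -1.39 for Nme1 to Nme2; with rows summed they were -0.46 for Ctps to Ctps2 and -2.68 for Nme1 to Nme2. Such sums took 5 rows for Ctps2, 2 for Nme2 and 1 each for Ctps and Nme1, so reads counted in several rows would weigh more. The median SD of salvage genes was 0.18 without tumour 10. The cause of these shifts was not tested. With 4 libraries and no control, small differences were not detectable, and large ones could go uncalled as well. In tumour 10, Adssl1 at a log2 fold change of 4.25 and Upp2 at 5.23 were not called by edgeR adjusted over all genes and the 4 tumours. A missing call therefore does not show equal levels. No paired analysis was possible because the 4 tumours form 1 group.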
